A study of Mus musculus with 12 samples.

Results

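The mitochondrial ribosomal protein genes are nuclear genes that encode the protein part of the mitochondrial ribosome. They were taken from the deposited gene table by symbol alone, as every gene named Mrpl or Mrps followed by a number and at most 1 letter. This gave 78 of 50559 genes, 49 with a large subunit symbol (Mrpl) and 29 with a small subunit symbol (Mrps). The Mrps symbols Mrps18a and Mrps30 name proteins that sit in the large subunit, and Mrps36 names a protein now placed in the oxoglutarate dehydrogenase complex, but all 3 were kept where their symbols put them.

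The proteins are made in the cytosol, imported into mitochondria and assembled there with 2 ribosomal RNAs encoded in mitochondrial DNA. The finished ribosome makes the core subunits of the respiratory chain and of ATP synthase, on which photoreceptors depend heavily. Minocycline is a tetracycline, and tetracyclines block bacterial protein synthesis by binding the small ribosomal subunit at its decoding site. The mitochondrial ribosome descends from a bacterial one, so these genes encode the machinery in the animal's own cells that the drug class is known to act on.

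RNA was sequenced from 12 retinal libraries of wild-type C57BL6/J mice collected on postnatal day 28, 3 for each of 4 groups. IgG mice received 30 µg of an isotype control antibody on day 1, and APB5 mice received 30 µg of the rat monoclonal antibody APB5 against PDGFRβ, the receptor through which pericytes are recruited to growing retinal vessels. IgG+Mino and APB5+Mino mice received the same antibodies and then minocycline at 45 mg/kg by daily intraperitoneal injection from day 5 to day 27. Each group held 3 mice per the study's figure legend, so each of its 3 libraries was taken as 1 mouse, although the labels do not tie libraries to animals.

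The libraries held 52741000 to 59411000 counts each, and all 78 genes passed the filter on low counts in every comparison. The following features of the libraries touched the comparisons below. First, Xist, the RNA of the inactive X chromosome, stood at 815 to 1606 CPM (counts relative to the TMM-scaled total of the library) in all 3 IgG libraries and below 1 CPM in all 3 IgG+Mino libraries, so minocycline and sex cannot be told apart in that comparison. In both the APB5 and the APB5+Mino group, replicate 3 was the single library with high Xist. Libraries with high Xist were thus more frequent without minocycline than with it in the fit over both antibodies. Second, APB5 replicate 3 stood apart from its group, with a summed level of 7 rod markers of 12056 CPM against 47386 and 55070 CPM in replicates 2 and 1, and a summed level of 8 microglia and macrophage markers of 459 CPM against 43.2 and 53.5 CPM. Rod markers were high and none of the 7 was at 0 in any library, as a retinal label requires. Marker sums of several other cell types were separate between groups as well. In APB5+Mino against APB5 they were lower for microglia and macrophages (13.4 to 15.9 against 43.2 to 459 CPM), astrocytes (29.1 to 40.8 against 132 to 1032 CPM), pericytes (61.8 to 68.9 against 113 to 212 CPM), endothelium (25.2 to 26.96 against 43.2 to 56.2 CPM), pigment epithelium (278 to 309 against 400 to 774 CPM) and amacrine and ganglion cells (967 to 1046 against 1053 to 1222 CPM). In IgG+Mino against IgG they were lower for microglia and macrophages (23.1 to 25.8 against 27.5 to 44.3 CPM) and pericytes (71.9 to 81.8 against 90.5 to 104 CPM). The part of these shifts in the comparisons was not tested beyond the values without APB5 replicate 3. Some sums rest mostly on 1 gene. The astrocyte sum of APB5 replicate 3 was 1028 CPM of Gfap, which the paper also stained in Müller cells of APB5 retinas. Rlbp1 made up 256 to 270 CPM of the pigment epithelium sums in APB5+Mino and was counted for Müller glia too. Single markers such as Pecam1, Kcnj8, Rpe65 and Slc6a9 overlapped between APB5+Mino and APB5. Bulk counts cannot tell fewer cells of a type from less RNA per cell.

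All 78 genes were detected at moderate levels. Mean levels over the 12 libraries ran from 1.12 CPM for Mrpl23 to 76.8 CPM for Mrpl49, with a median of 22.1 CPM, and 77 of the 78 genes had at least 100 counts in every library. Per kilobase of the canonical transcript, the highest were Mrps21 at 50.8, Mrpl49 at 42.2, Mrpl20 at 38.9, Mrpl27 at 37.4 and Mrpl2 at 34.4 CPM per kb, and the lowest were Mrpl23 at 1.62, Mrpl35 at 2.35, Mrpl1 at 2.60, Mrpl47 at 2.61 and Mrps25 at 2.95 CPM per kb. The length used matters for Mrps25, whose canonical transcript has 6102 bases but whose median coding transcript has 1673, and which stood at 10.7 CPM per kb on the latter, no longer among the lowest 5. These levels spanned more than an order of magnitude among proteins that enter the same particle as single copies for the most part.

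Together the 78 genes took 0.145% to 0.211% of all counts of a library. Their summed level was 1910, 1863 and 2169 CPM in the IgG libraries and 2033, 1546 and 1656 CPM in the IgG+Mino libraries. It was 1868, 1707 and 1844 CPM in the APB5 libraries and 1732, 1496 and 1587 CPM in the APB5+Mino libraries. IgG+Mino replicate 1 lay inside the IgG range and APB5+Mino replicate 1 inside the APB5 range, so both minocycline groups overlapped their controls, although their means were lower (1745 ± 255 against 1981 ± 165 CPM with IgG and 1605 ± 119 against 1806 ± 86.6 CPM with APB5, mean ± SD, n = 3 each).

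The same order held gene by gene. Relative to each gene's mean log2 CPM in the IgG group, the median over the 78 genes was -0.057, -0.094 and 0.158 in the IgG libraries and 0.011, -0.389 and -0.253 in the IgG+Mino libraries. It was -0.083, -0.207 and -0.098 in the APB5 libraries and -0.212, -0.440 and -0.365 in the APB5+Mino libraries. The 3 APB5+Mino medians were below those of all 3 APB5 libraries, while IgG+Mino replicate 1 was above 2 of the 3 IgG libraries.

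**Figure D1:**
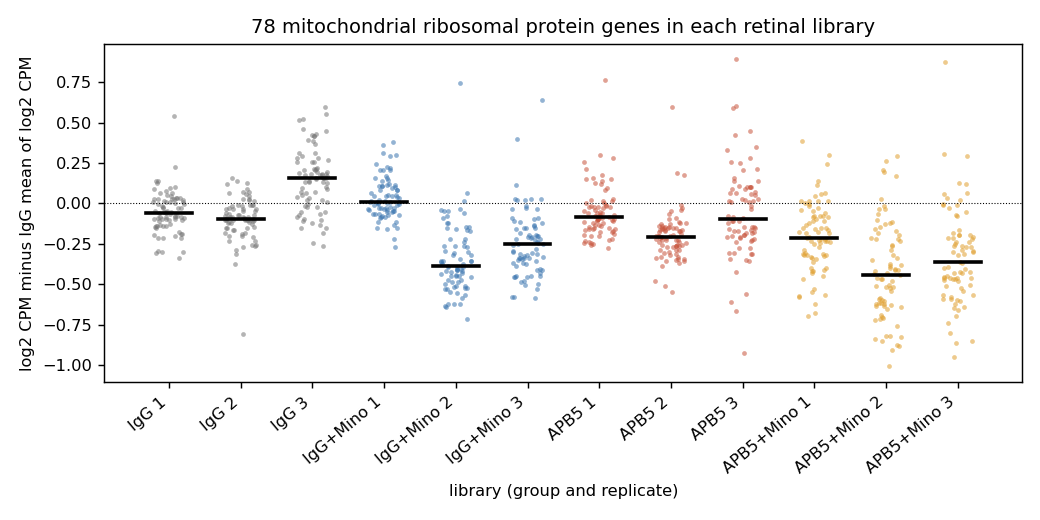
Each point is 1 of the 78 mitochondrial ribosomal protein genes in 1 library, plotted as log2 CPM minus that gene's mean log2 CPM in the IgG group, and each black bar is the median of the library. The medians lie between -0.440 (APB5+Mino replicate 2) and 0.158 (IgG replicate 3), with IgG+Mino replicate 1 (0.011) far above the other 2 libraries of its group.

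Taking both antibodies together, mitochondrial ribosomal protein mRNAs were mostly somewhat lower with minocycline. Of the 78 genes, 4 fell and none rose past an adjusted p of 0.05 in a fit with terms for the antibody and for minocycline (edgeR's quasi-likelihood test, Benjamini-Hochberg adjusted over 21228 genes). All 4 encode large subunit proteins: Mrpl52, Mrpl33, Mrpl55 and Mrpl13. The background was 1.75% of all genes called lower and 1.8% called higher, a smaller share than 4 of 78 in the first case. At an unadjusted p under 0.05, 31 of the 78 were lower and 1 was higher, against 16.3% and 13% of all genes. The fitted log2 fold change was below 0 for 68 of the 78, with a median of -0.20, while it was below 0 for 52.3% of all genes, with a median of -0.02.

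Mrpl33, a short large subunit protein with a bacterial counterpart, had the lowest fold change of the 78. Its level was 8.60, 7.32 and 13.6 CPM with IgG and 8.50, 6.41 and 6.57 CPM with IgG+Mino. It was 11.7, 8.12 and 14.3 CPM with APB5 and 5.93, 4.72 and 4.91 CPM with APB5+Mino. All 3 APB5+Mino libraries were below every other library, and the IgG and IgG+Mino groups overlapped. Over both antibodies Mrpl33 fell by 0.79 on the log2 scale (SE 0.201, 42.2% lower, edgeR adjusted p = 0.0486).

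Mrpl52, a large subunit protein with no bacterial counterpart, had the smallest p. It stood at 14.6, 15.0 and 17.4 CPM with IgG and at 15.0, 10.1 and 11.4 CPM with IgG+Mino. With APB5 it stood at 15.0, 13.1 and 19.0 CPM and with APB5+Mino at 10.5, 8.35 and 8.98 CPM. The APB5+Mino libraries were again below all APB5 libraries, and IgG+Mino replicate 1 was level with IgG replicate 2. Mrpl52 fell by 0.56 on the log2 scale over both antibodies (SE 0.138, 32.2% lower, edgeR adjusted p = 0.0463).

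Mrpl55 is likewise specific to mitochondria. Its level was 20.9, 19.2 and 24.99 CPM with IgG, 20.9, 14.0 and 15.4 CPM with IgG+Mino, 18.7, 18.4 and 19.8 CPM with APB5 and 14.8, 11.95 and 11.96 CPM with APB5+Mino. It fell by 0.46 (SE 0.118, 27.5% lower, edgeR adjusted p = 0.0489), and again only IgG+Mino replicate 1 among the 6 minocycline libraries reached the range of its antibody control. Mrpl13, the mitochondrial form of a protein found in all ribosomes, was at 25.7, 25.2 and 31.5 CPM with IgG, 25.9, 20.8 and 20.0 CPM with IgG+Mino, 25.4, 21.4 and 29.4 CPM with APB5 and 18.4, 15.5 and 16.9 CPM with APB5+Mino. It fell by 0.44 (SE 0.114, 26.5% lower, edgeR adjusted p = 0.04995), and in all 4 genes APB5+Mino had the lowest mean while IgG+Mino replicate 1 stood with its controls.

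The next genes missed the threshold by little. Mrps28, a small subunit protein, was lower by 0.40 on the log2 scale (edgeR adjusted p = 0.0523) and Mrps21, the gene with the highest level per kilobase, by 0.45 (edgeR adjusted p = 0.0539). Mrps6 and Mrps33, both of the small subunit, were among the 4 genes with the lowest fold changes, at -0.56 and -0.48, without passing the test (edgeR adjusted p = 0.101 and 0.0823). At the other end stood Mrps2 at 0.24, Mrpl3 at 0.14 and Mrps18b at 0.08, none of which passed (edgeR adjusted p of 0.155 to 0.603).

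These 4 calls were not stable, and neither was the number of calls over all genes. With Xist as a covariate no gene of the 78 was called, although the median log2 fold change was -0.21, and with offsets for GC content and transcript length none was called and the median was -0.11. No gene was called without IgG replicate 1 or 3, IgG+Mino replicate 2 or 3, APB5 replicate 1 or 2, or any 1 of the 3 APB5+Mino libraries, fits in which at most 1.74% of all genes were called. Without IgG+Mino replicate 1, 26 of the 78 were called (33.3%), all lower, against 12.5% of all genes in either direction. The Xist fit called 0% and the offset fit 0.0673% of all genes.

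**Figure D2:**
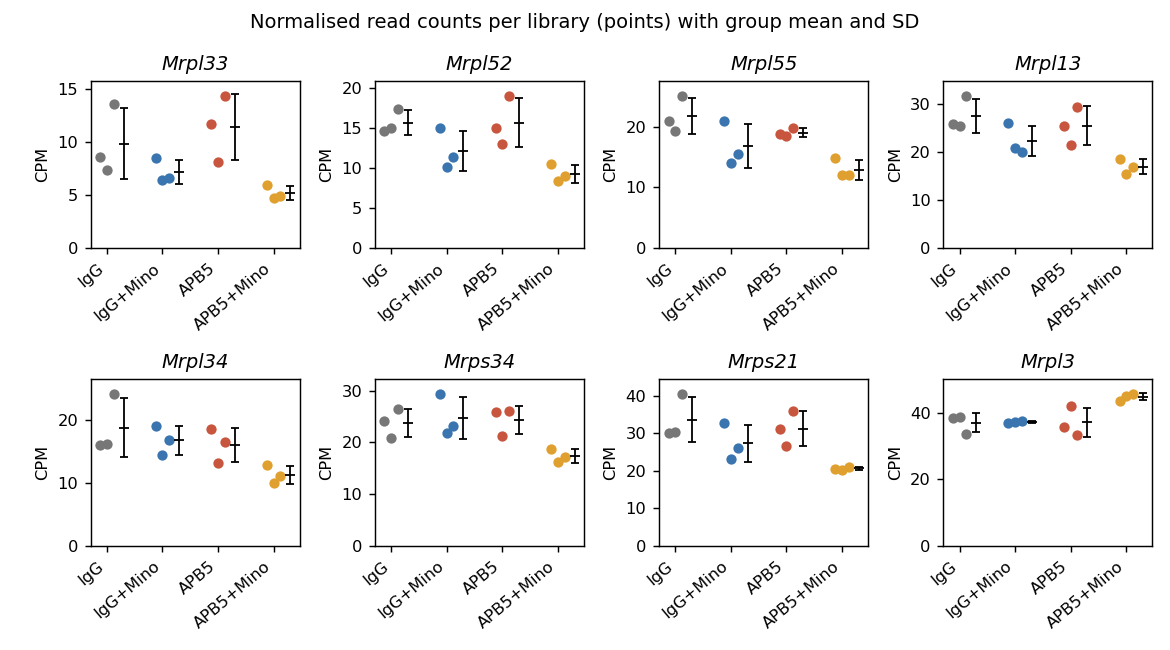
Level in CPM of 8 mitochondrial ribosomal protein genes in each library (points, coloured by group), with the mean and SD of each group of 3 beside them and each axis starting at 0. Mrpl33, Mrpl52, Mrpl55 and Mrpl13 passed the test over both antibodies, Mrpl34 and Mrps34 passed between the 2 minocycline groups, and Mrps21 and Mrpl3 (43.6 to 45.6 CPM in APB5+Mino) are shown as a near miss and as a gene with the opposite sign.

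With the control antibody, minocycline changed no mitochondrial ribosomal protein mRNA past the threshold. In IgG+Mino against IgG, 0 of 78 genes were called by edgeR's quasi-likelihood test or by DESeq2. Of all genes, 0.0298% were called by edgeR and 0.273% by DESeq2, in either direction. At an unadjusted p under 0.05, 2 were lower and none was higher, against a background of 3.39% of all genes lower. The fold change was nevertheless below 0 for 69 of 78 genes, with a median log2 fold change of -0.19 against -0.01 for all 20143 genes tested.

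The 2 genes with an unadjusted p under 0.05 were Mrps27 and Mrpl32. Mrps27, an RNA-binding small subunit protein, was at 27.6, 25.4 and 28.4 CPM with IgG and 23.2, 20.3 and 19.9 CPM with IgG+Mino, a log2 fold change of -0.35 (SE 0.128, edgeR adjusted p = 0.585). Mrpl32, a large subunit protein that is cut by a mitochondrial protease before it assembles, was at 15.5, 15.5 and 18.7 against 13.7, 12.1 and 13.4 CPM, a log2 fold change of -0.33 (edgeR adjusted p = 0.585). With Mrpl16 and Mrpl48, at -0.29 and -0.14, these were the only 4 genes whose 2 groups did not overlap downward, against 7.48% of all genes, and no gene did so upward, against 6.88%.

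The extremes of this comparison did not pass either. Mrpl33, Mrpl41 and Mrpl55 had the lowest log2 fold changes, at -0.45, -0.38 and -0.36, and Mrpl23, Mrps2 and Mrps18b the highest, at 0.40, 0.25 and 0.14. Mrpl23 had as few as 27 counts in a library, the fewest of the 78 genes. The median moved to -0.32 without IgG+Mino replicate 1 and to -0.12 without IgG+Mino replicate 2. The call count stayed at 0 whichever library was left out, fits in which at most 0.0633% of all genes were called.

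With the APB5 antibody 1 gene passed. In APB5+Mino against APB5, Mrpl33 fell by 1.13 on the log2 scale (SE 0.232, 54.3% lower, edgeR adjusted p = 0.0476), which also made it the one gene of the 78 to pass a 2-fold limit in any comparison. The background was 2.03% of 20281 genes called lower and 2.79% called higher, so 1 of 78 was no more than the background share. At an unadjusted p under 0.05, 25 genes were lower and 1 was higher, against 19.2% and 16.7% of all genes, and 64 of 78 were below 0 with a median of -0.25 against -0.02.

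Groups that did not overlap were frequent in both directions across the transcriptome here. Of the 78 genes, 28 were lower in every APB5+Mino library than in every APB5 library, against 23.3% of all genes, and 7 were higher in every one, against 23.2%. The small subunit symbols had a median log2 fold change of -0.32 over 29 genes, with 14 lower and none higher at an unadjusted p under 0.05. The large subunit symbols had a median of -0.22 over 49 genes, with 11 lower and 1 higher, and whether the 2 subunits differed was not tested.

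Of the genes that just missed the threshold, Mrps21 had the smallest p. It stood at 31.1, 26.5 and 35.9 CPM with APB5 and at 20.6, 20.2 and 21.1 CPM with APB5+Mino, which is -0.60 on the log2 scale (SE 0.130, edgeR adjusted p = 0.0502). Mrpl55 followed at -0.56, Mrps24 at -0.51 and Mrpl52 at -0.76 (edgeR adjusted p of 0.0512 to 0.0520), then Mrpl13 at -0.59, Mrps34 at -0.49, Mrps28 at -0.52, Mrps33 at -0.73 and Mrps18a at -0.42 (edgeR adjusted p of 0.0557 to 0.0680). Mrps24 is the mitochondrial form of a protein that lines the mRNA entry of the small subunit. Mrps6 had a log2 fold change of -0.78 but did not pass (edgeR adjusted p = 0.128). In APB5 it stood at 13.4, 10.7 and 25.2 CPM, with replicate 3 far above the others, and it was not among the genes called without that library.

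A few genes pointed the other way. Mrps22, a small subunit protein specific to mitochondria, was at 13.2, 12.2 and 12.1 CPM with APB5 and at 17.7, 13.8 and 14.7 CPM with APB5+Mino, with a log2 fold change of 0.30 (edgeR adjusted p = 0.153). Mrpl3, which lies near the catalytic centre of the large subunit, was at 35.7, 42.0 and 33.4 against 43.6, 45.1 and 45.6 CPM, a log2 fold change of 0.27 (edgeR adjusted p = 0.134). Both pairs of groups were separate without passing the test. Mrpl49 had a log2 fold change of 0.29 with overlapping groups, APB5 replicate 3 being low at 45.2 CPM.

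The number of calls in this comparison depended on how it was fitted. Deviations of same-numbered APB5 and APB5+Mino libraries from their group means correlated weakly, at 0.133 to 0.289, which was taken as a hint of pairing. With the replicate number as a block Mrpl33 kept a log2 fold change of -1.10 (edgeR adjusted p = 0.0641). No gene of the 78 was called in that fit, and 0% of all genes. DESeq2 called 15 genes, all lower, where it called 25.3% of all genes, and a single edgeR fit of all 12 libraries called 12, all lower, where it called 21.0% of all genes. These shares of the 78, 19.2% and 15.4%, were below those of all genes. None was called without APB5 replicate 1 or any 1 of the 3 APB5+Mino libraries, fits in which at most 0.00479% of all genes were called. Without APB5 replicate 2, 12 (15.4%) were called, 11 lower, with Mrpl3 higher. Without APB5 replicate 3, the library with the altered cell markers, 16 (20.5%) were called, all lower. In these last 2 fits 20.1% and 26.6% of all genes were called, again more than of the 78. Without APB5 replicate 3 the median was -0.20, and with GC content and length offsets it was -0.12.

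The minocycline comparisons with each antibody share no library, so their signs can be counted side by side. Of the 78 genes, 58 were below 0 in both, 3 were above 0 in both, 11 were below 0 with IgG alone and 6 with APB5 alone. Since 69 were below 0 with IgG and 64 with APB5, a high count in both follows from these numbers alone. It does not show agreement gene by gene. Of the 58, 37 had the lower fold change with APB5. Spearman's rho between the 2 sets of fold changes was 0.33 across the 78 genes, which share libraries within each comparison and are not independent replicates.

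**Figure D3:**
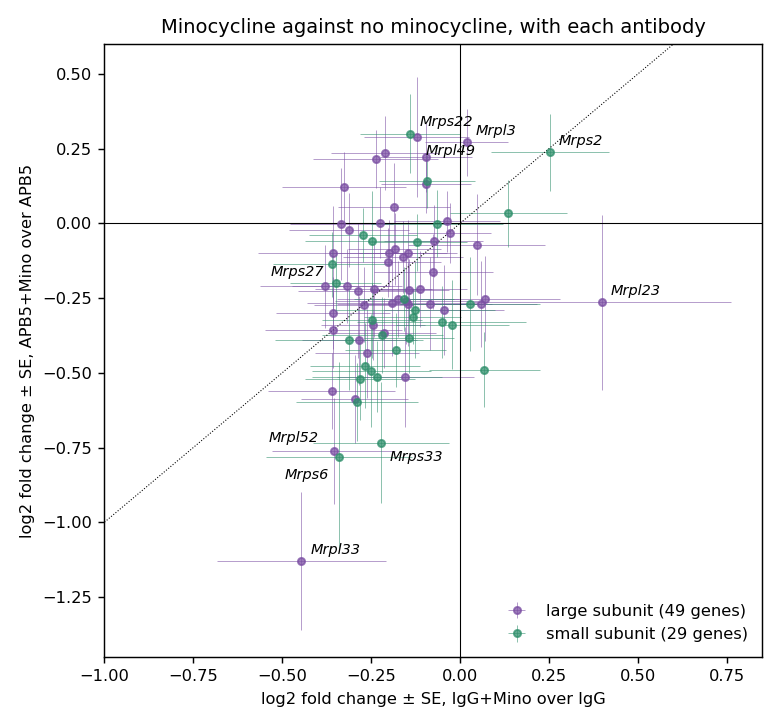
Log2 fold change with SE of each of the 78 genes with minocycline against without it, for mice given IgG (horizontal axis) and for mice given APB5 (vertical axis), the dotted line marking equal change. Most genes lie in the lower left, 58 of 78, and Mrpl33 lies farthest down at -1.13.

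Whether fold changes with minocycline differed between the 2 antibodies was tested as an interaction over all 12 libraries. It includes the comparison of IgG+Mino with IgG, in which minocycline and sex cannot be told apart. No gene of the 78 was called by edgeR's quasi-likelihood test or by DESeq2. Of 21228 genes, 0.0141% were called by edgeR and 3.38% by DESeq2. At an unadjusted p under 0.05 in edgeR there were 2 higher and 1 lower, against 8.06% and 9.08% of all genes. Mrps34, a small subunit protein that stabilises the small ribosomal RNA, had an interaction of -0.54 (SE 0.206, edgeR adjusted p = 0.229), Mrps22 of 0.45 and Mrpl1 of 0.46 (edgeR adjusted p = 0.250 and 0.252). Mrpl33 and Mrpl23 had the lowest values at -0.67 and -0.65 and Mrpl38 and Mrpl45 the highest at 0.465 and 0.46, and none of them passed. The median interaction was -0.07, which turned to 0.09 without IgG+Mino replicate 1 and to 0.001 without APB5+Mino replicate 2, so the sign of the median rested on single libraries.

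With the antibody alone these genes were mostly slightly lower, and none was called. Xist was high in all IgG libraries and in APB5 replicate 3 alone, so antibody and sex are partly mixed here. In APB5 against IgG, 0 of 78 genes and 0% of all 20350 genes were called by edgeR. DESeq2 called 0 of the 78 and 0.482% of all genes. At an unadjusted p under 0.05, 2 were lower, against 2.01% of all genes, and none was higher. The median log2 fold change was -0.10, with 62 genes below 0, against -0.002 and 50.4% of all genes. The median of the 78 was -0.06 without APB5 replicate 2 and -0.07 without IgG replicate 3. Groups were separate and lower for 16 genes, against 7.86% of all genes, and separate and higher for 1, Mrpl23, against 7.84%.

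Mrps26 and Mrpl32 were the 2 genes with an unadjusted p under 0.05. Mrps26, a small subunit protein specific to mitochondria, was at 43.7, 37.8 and 41.5 CPM with IgG and at 33.9, 32.3 and 32.03 CPM with APB5, a log2 fold change of -0.32 (SE 0.119, edgeR adjusted p = 0.664). Mrpl32 had a log2 fold change of -0.40 and Mrpl14 and Mrpl49 were lower still at -0.44 and -0.42 (edgeR adjusted p = 0.664 each). In Mrpl49 the low value of APB5 replicate 3 weighed on the group. The highest were Mrpl23 at 0.54, Mrps6 at 0.25 and Mrpl33 at 0.22, none called.

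Between the 2 minocycline groups, 2 genes fell with APB5. In APB5+Mino against IgG+Mino, Mrpl34 fell by 0.57 on the log2 scale (SE 0.142, 32.8% lower, edgeR adjusted p = 0.0441) and Mrps34 by 0.51 (SE 0.133, 29.8% lower, edgeR adjusted p = 0.0485). The background was 3.28% of 20049 genes called lower and 4.8% called higher, so 2 of 78 lay below it. At an unadjusted p under 0.05, 19 genes were lower and 3 higher, against 14.6% of all genes in each direction, and 63 were below 0 with a median of -0.16.

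Mrpl34, among the shortest proteins of the large subunit, was at 19.1, 14.4 and 16.8 CPM with IgG+Mino and at 12.8, 10.02 and 11.1 CPM with APB5+Mino. Mrps34 was at 29.4, 21.8 and 23.1 CPM with IgG+Mino and at 18.8, 16.2 and 17.1 CPM with APB5+Mino. In both genes the groups were separate and IgG+Mino replicate 1 was the highest library. Separate groups were lower for 16 of the 78 genes, against 17.2% of all genes, and higher for 5, against 18%.

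Mrps28 and Mrpl33 followed at -0.48 and -0.47 (edgeR adjusted p = 0.0554 and 0.0982). Mrpl1, Mrps22 and Mrpl3 had the highest log2 fold changes at 0.34, 0.33 and 0.26 (edgeR adjusted p of 0.0665 to 0.138). No gene was called without IgG+Mino replicate 3 or any 1 of the 3 APB5+Mino libraries, fits in which at most 2.82% of all genes were called. The median was -0.25 without IgG+Mino replicate 2. Without IgG+Mino replicate 1, 7 were called, 5 higher (Mrpl1, Mrpl3, Mrpl38, Mrpl45 and Mrps22) and Mrpl34 and Mrps34 lower, and the median was -0.02. That was 8.97% of the 78 against 16.4% of all genes.

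Of the small subunit proteins listed as nearest to the site where tetracyclines bind in the bacterial ribosome, none was called in edgeR's main fits. Main fits are those without an alternative setting. Mrps12, which monitors codon pairing, was at 16.3, 15.5 and 20.8 CPM with IgG, 18.6, 11.8 and 11.6 CPM with IgG+Mino, 15.5, 14.4 and 19.1 CPM with APB5 and 14.8, 11.2 and 11.5 CPM with APB5+Mino. Its log2 fold change over both antibodies was -0.35 (edgeR adjusted p = 0.129), with overlapping groups throughout. The other small subunit proteins of the decoding side or the head and platform, Mrps7, Mrps5, Mrps14, Mrps10, Mrps11 and Mrps15, ran from -0.29 for Mrps14 to 0.02 for Mrps5 (edgeR adjusted p of 0.077 to 0.888).

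Mrps14 came nearest to a call among these, at 18.1, 20.2 and 21.3 CPM with IgG, 18.7, 15.5 and 15.7 CPM with IgG+Mino, 18.7, 17.2 and 20.7 CPM with APB5 and 16.7, 13.9 and 14.8 CPM with APB5+Mino. Mrps5 stayed between 22.6 and 30.4 CPM in all 12 libraries. In APB5+Mino against APB5, Mrps7, Mrps10 and Mrps14 were separate and lower and Mrps5 separate and higher, against 23.3% and 23.2% of all genes. None of the 7 genes passed edgeR's test in the main fit of any of the 6 comparisons. Alternative edgeR fits called some. Without IgG+Mino replicate 1, Mrps7, Mrps10, Mrps12 and Mrps14 were called over both antibodies (12.5% of all genes). With library size scaling Mrps14 was called over both (7.07%). In APB5+Mino against IgG+Mino the replicate block gave Mrps10 and Mrps11 (20.2%). In APB5+Mino against APB5, Mrps10 was called without APB5 replicate 3 (26.6%). DESeq2 called Mrps10 in APB5+Mino against APB5, where it called 25.3% of all genes. It also called Mrps10 and Mrps11 in APB5+Mino against IgG+Mino (17.6% of all genes) and Mrps14 over both antibodies (15.4%). Mrps24, given above, was not among the 7.

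The 3 Mrps18 paralogs, of which Mrps18b and Mrps18c belong to the small subunit, had different fold changes with minocycline. Over both antibodies Mrps18c was at -0.37 and Mrps18a at -0.31, while Mrps18b was at 0.08 (edgeR adjusted p = 0.0613, 0.0774 and 0.603). Mrps18c was at 14.0, 13.3 and 12.9 CPM with IgG, 13.1, 9.84 and 10.2 CPM with IgG+Mino, 13.5, 12.2 and 13.5 CPM with APB5 and 10.8, 8.74 and 8.62 CPM with APB5+Mino, so that its APB5+Mino libraries were separate from APB5. Mrps18b lay between 10.9 and 16.4 CPM with no separate pair of groups in either minocycline comparison. The difference between the paralogs was not tested.

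The stalk of the large subunit, where translation factors dock, was represented by Mrpl12, Mrpl10 and Mrpl11. Over both antibodies their log2 fold changes were -0.35, -0.17 and -0.33 (edgeR adjusted p = 0.071, 0.239 and 0.076). Mrpl11 was at 43.5, 40.4 and 45.9 CPM with IgG against 42.0, 27.8 and 30.9 CPM with IgG+Mino, and 38.2, 36.5 and 33.9 CPM with APB5 against 33.6, 26.3 and 28.4 CPM with APB5+Mino. In both pairs replicate 1 of the minocycline group was the highest of its 3, and only the APB5+Mino libraries were separate from their controls.

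Mrpl3 and Mrpl4, which sit in the core of the large subunit, were at 0.14 and -0.02 over both antibodies and neither passed. Mrpl58, a release factor that became a structural part of the ribosome, was at -0.17 (edgeR adjusted p = 0.255). Mrpl44, which has the fold of an RNase III, was at -0.17 and Mrps36 at -0.19, with no call in any main fit (edgeR adjusted p = 0.352 and 0.405 over both antibodies). Without APB5 replicate 3, edgeR called Mrpl44 in APB5+Mino against APB5, where it called 26.6% of all genes.

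Transcript length moved with these fold changes in all genes, and the mitochondrial ribosomal protein genes are short. Their median canonical transcript was 1812 bases against 2812 bases over the tested genes that had a length, 91.0% of all tested, and 30 of the 78 fell in the shortest of 4 equal length classes of all genes, up to 1431 bases. Over both antibodies the median log2 fold change of all genes was -0.195 in the shortest class, -0.125 in the second, 0.000 in the third and 0.156 in the longest. The 78 genes had medians of -0.245, -0.169, -0.186 and -0.137 in the same classes, over 30, 22, 21 and 5 genes. They lay below all genes of their class in each, by little in the 2 shorter classes that hold 52 of them and by more in the 2 longer.

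The values are given for each antibody, without a test of their difference. In APB5+Mino against APB5 the fold changes of the 78 genes were higher for longer transcripts (Spearman's rho 0.43 across genes), whereas in IgG+Mino against IgG rho was -0.02. In the latter the 21 genes of the third class had a median of -0.243 where all genes had 0.011, and the 30 of the shortest class -0.186 where all genes had -0.142. In APB5+Mino against APB5 the corresponding values were -0.209 and -0.009, and -0.310 and -0.245. Genes are not independent replicates here, and the part of length in the lower levels was not tested beyond these values and the offsets given above.

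**Figure D4:**
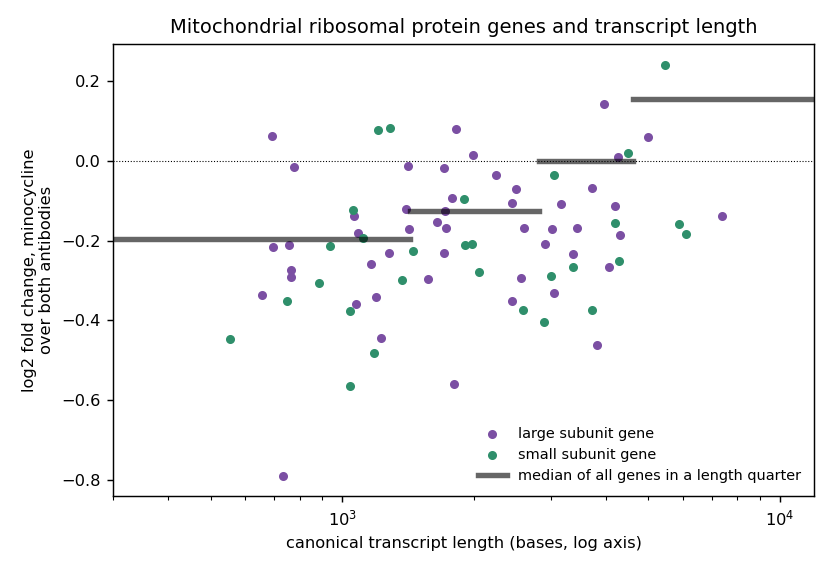
Log2 fold change with minocycline over both antibodies (vertical axis) against canonical transcript length on a log axis for the 78 genes, with horizontal bars at the median of all tested genes in each length class (the outer classes extend beyond the axis). The bars run from -0.195 in the shortest to 0.156 in the longest class, and Mrpl33, at -0.79, lies lowest.

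Other lists of mitochondrial translation genes had medians below 0 with IgG, as the ribosomal proteins had, but not all of them with APB5. Of 5 mitochondrial ribosome proteins with other symbols, Chchd1 fell by 0.41 over both antibodies (edgeR adjusted p = 0.0469), and the median of the 5 was -0.25. Chchd1, a small subunit protein, was at 20.2, 18.8 and 21.8 CPM with IgG, 17.4, 12.7 and 13.8 CPM with IgG+Mino, 16.7, 13.7 and 16.9 CPM with APB5 and 13.2, 11.3 and 12.3 CPM with APB5+Mino. Both minocycline groups were below their own controls in every library.

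Of 25 ribosome assembly genes, 1 fell and none rose over both antibodies, with a median of -0.03. The one called was Rbfa, which matures the small subunit, at -0.40 (edgeR adjusted p = 0.0444). With APB5, Mpv17l2 and Rbfa fell by 0.61 and 0.54 and Trub2, a pseudouridine synthase, rose by 0.67 (edgeR adjusted p of 0.0461 to 0.0472), and the median of the list was 0.11. With IgG none was called and the list median was -0.10. In APB5+Mino against APB5 the ribosomal proteins held 1 call, so the directions of calls cannot be compared between the 2 lists.

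Of 15 translation factors and mRNA regulators, Slirp alone was called over both antibodies. Slirp, which stabilises mitochondrial mRNAs together with Lrpprc, fell by 0.57 over both antibodies (edgeR adjusted p = 0.042) and by 0.80 with APB5 (edgeR adjusted p = 0.0471), and the list had a median of 0.02. Of 20 mitochondrial aminoacyl-tRNA synthetases, Fars2 alone was called, at -0.49 over both antibodies (edgeR adjusted p = 0.0469), with a list median of 0.05. With APB5 the medians of these 2 lists were 0.09 and 0.23, above 0 where the ribosomal proteins had -0.25. With IgG they were -0.15 and -0.09, below 0 as was the -0.19 of the ribosomal proteins.

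The RNAs of the mitochondrial genome, the mRNAs that this ribosome translates and its own ribosomal RNAs, were mostly on the other side. Of 15 mitochondrially encoded genes, 4 rose and none fell over both antibodies, namely ATP8 by 1.49, ND4L by 1.36, ND5 by 1.11 and ND4 by 0.90 on the log2 scale (edgeR adjusted p of 0.0388 to 0.0404). ATP8, a subunit of ATP synthase, was at 188, 236 and 334 CPM with IgG and 402, 921 and 901 CPM with IgG+Mino, and at 547, 301 and 221 CPM with APB5 and 959, 1037 and 882 CPM with APB5+Mino. For ATP8, all minocycline libraries were above their own controls. Over both antibodies 13 of the 15 genes were above 0 and 2 below. The ribosomal RNA mt-Rnr2 was at 1678, 1448 and 1150 CPM with APB5 and 1460, 1339 and 1230 CPM with APB5+Mino. The median of the 15 was 0.55 with IgG, 0.31 with APB5 and 0.36 over both, and their summed share of counts ran from 3.55% to 6.63% of a library.

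Of 15 regulators of mitochondrial DNA expression and biogenesis, none was called over both antibodies. With APB5, Pprc1, a coactivator, and Polrmt, the mitochondrial RNA polymerase, rose by 0.72 and 0.64, and Tfam, which packages mitochondrial DNA, fell by 0.47 (edgeR adjusted p of 0.0461 to 0.0493). Of 23 mitochondrial stress response genes tested, 1 fell over both antibodies, the chaperonin gene Hspe1, by 0.51 (edgeR adjusted p = 0.0436). With APB5, Ddit3, Hspe1 and Trib3 fell by 0.96, 0.74 and 0.87 and the protease gene Lonp1 rose by 0.41 (edgeR adjusted p of 0.0461 to 0.0476). The median of these 23 genes was below 0 as well, at -0.11 with IgG, -0.37 with APB5 and -0.25 over both.

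Of 12 genes taken as a measure of mitochondrial mass, none was called in either minocycline comparison or over both, and their median over both was -0.09. Tomm22, an import receptor, had the smallest p at -0.31 and Vdac2, an outer membrane channel, the next at -0.19 (edgeR adjusted p = 0.0531 and 0.117).

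The mRNAs of the cytosolic ribosomal proteins, which build the other ribosome of the cell, were lower as well. Of 81 tested, 21 fell and none rose over both antibodies, with a median log2 fold change of -0.39, and 11 fell and none rose with APB5, with a median of -0.54. With IgG none was called and the median was -0.21, close to the -0.19 of the mitochondrial ribosomal proteins. Over both antibodies Rpl35a fell by 0.54, Rpl37a by 0.67, Rpl27a by 0.64, Rps24 by 0.49 and Rps3 by 0.46 (edgeR adjusted p of 0.0401 to 0.0404). The median of the cytosolic genes relative to the IgG group was -0.440, -0.716 and -0.612 in the APB5+Mino libraries, below the mitochondrial ones in each, and 0.030, -0.413 and -0.263 in the IgG+Mino libraries. No difference between the 2 kinds of ribosomal protein was tested.

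**Figure D5:**
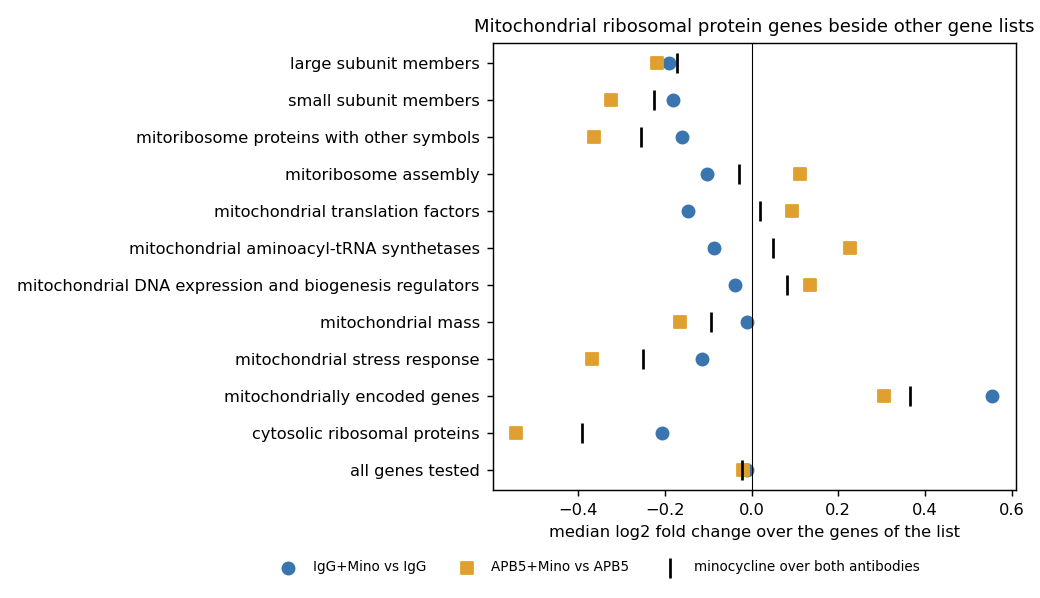
Median log2 fold change of each gene list with minocycline, for mice given IgG (circles), for mice given APB5 (squares) and over both antibodies (short ticks). The ribosomal protein lists lie below 0 in all 3. So do the stress response list (-0.11, -0.37 and -0.25) and the mitochondrial mass list (-0.01, -0.17 and -0.09). The mitochondrially encoded genes lie above 0 in all 3 (0.55, 0.31 and 0.36), and all genes tested near 0.

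The promoters of the mitochondrial ribosomal protein genes were searched for 4 short motifs, on both strands, in windows from 250 bases before to 50 bases after the start (RefSeq, GRCm38.p6). Of the 78 genes, 69 had a window, giving 75 windows, and Mrpl13, Mrpl15, Mrpl19, Mrpl38, Mrpl4, Mrpl54, Mrps28, Mrps34 and Mrps35 had none. The ETS family core CCGGAAG, the core bound by GABP, stood in 26 of 75 windows (34.7%), against 8.86% of all windows and 13.7% of those of tested genes. The NRF1 core GCGCANGCG stood in 16 (21.3%), against 6.25% and 10.4%, and the YY1 core AAGATGGCG in 8 (10.7%), against 1.4% and 2.21%. TATAAA stood in 5 (6.67%), against 13.6% and 8.48%. A match describes the letters and does not show binding.

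The stretches just upstream of 6 starts are shown, those of genes called or nearly called (Mrpl34, Mrpl52 and Mrps21), of 2 genes that pointed the other way (Mrpl3 and Mrps22) and of 1 with both an ETS and an NRF1 core (Mrpl22). Each runs 5′ to 3′ on the gene's strand up to the base before the start, with motif matches on either strand in capitals, on GRCm38.p6 at chr8:71464866-71464925 (plus strand) for Mrpl34, chr14:54426849-54426908 (plus) for Mrpl52, chr3:95871515-95871614 (minus) for Mrps21, chr9:105053208-105053267 (plus) for Mrpl3, chr9:98601680-98601739 (minus) for Mrps22 and chr11:58171601-58171663 (plus) for Mrpl22.
Mrpl34: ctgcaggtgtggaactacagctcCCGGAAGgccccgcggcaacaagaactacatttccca
Mrpl52: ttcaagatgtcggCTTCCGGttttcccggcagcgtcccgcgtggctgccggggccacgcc
Mrps21: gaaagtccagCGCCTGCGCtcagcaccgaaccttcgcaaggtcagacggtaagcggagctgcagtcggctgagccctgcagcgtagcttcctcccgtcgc
Mrpl3: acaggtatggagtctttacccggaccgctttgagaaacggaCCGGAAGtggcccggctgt
Mrps22: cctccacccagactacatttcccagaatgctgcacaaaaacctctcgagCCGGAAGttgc
Mrpl22: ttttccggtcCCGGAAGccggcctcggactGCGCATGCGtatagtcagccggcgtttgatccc
The capitals mark an ETS core in Mrpl34, Mrpl52, Mrpl3 and Mrps22, an NRF1 core in Mrps21, and both in Mrpl22. Genes with fold changes of opposite sign, such as Mrpl34 and Mrpl3, thus carried the same core.

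The genes are spread over 17 chromosomes and often lie close to another gene. In the GENCODE annotation of GRCm39, 29 of the 78 (37.2%) start within 1000 bases of another protein-coding gene's start on the other strand, against 13.2% of tested protein-coding genes, and 39 (50%) overlap a protein-coding gene on the other strand, against 30.1%. Mrpl46 and Mrps11 start 412 bases apart from each other on opposite strands, Mrpl36 starts 56 bases from Ndufs6, a complex I gene, and Mrps12 starts 288 bases from Sars2, a mitochondrial aminoacyl-tRNA synthetase gene. The 6 genes called in a comparison lie, on GRCm39, at chr5:31754279-31837542 on the plus strand (Mrpl33), chr14:54664360-54668593 plus (Mrpl52), chr11:59093303-59098353 plus (Mrpl55), chr15:55385722-55421144 minus (Mrpl13), chr8:71917555-71918396 plus (Mrpl34) and chr17:25114072-25116476 plus (Mrps34). Of these, Mrpl33 overlaps Rbks, Mrpl13 overlaps Mtbp and Mrps34 overlaps Eme2 and Mapk8ip3, while Mrpl34, Mrpl52 and Mrpl55 overlap no coding gene on the other strand. The libraries mark strand, but whether the counting used it is not stated, so counts of overlapping pairs are less certain, as are those of genes with near-identical copies elsewhere in the genome.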

How the data were processed

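Per the labels and the study's methods, the authors prepared stranded poly-A libraries from retinal RNA, sequenced them as single reads on an Illumina NextSeq, and aligned and counted them with the DRAGEN RNA pipeline (version not given in the sources used here) on mm39 with NCBI annotation, after bcl2fastq 2.20. The deposited values used here are raw counts per gene. The deposited tables of fold changes and p-values hold the authors' own comparisons and were not used, nor were 3 columns that repeat libraries of the count table.

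Counts were tested with edgeR 4.0.16 in R 4.3.3 (filterByExpr, TMM factors, quasi-likelihood test, Benjamini-Hochberg adjustment over all genes, called at an adjusted p of at most 0.05). Each pairwise comparison used its 6 libraries; the interaction and the fit of antibody plus minocycline used all 12. CPM used TMM-scaled library sizes, fold changes a prior count of 2. DESeq2 1.42.0 was an alternative, with others on scaling, filtering, Xist, GC content, length, the replicate number and each library left out. Depth, 52741000 to 59411000 counts, gave every gene but Mrpl23 at least 100 counts per library. The script was tested on simulated counts. In APB5+Mino against APB5 it recovered 1 of 68 genes changed by 0.5 on the log2 scale and 17 of 66 changed by 1. Over both antibodies it recovered 7 of 68 and 41 of 66. A missing call therefore does not show that a gene was unchanged at these sizes or below.

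Deviations of same-numbered APB5 and APB5+Mino libraries from their group means correlated at 0.133, 0.289 and 0.173, all over 0.1. Those numbers were therefore taken to pair libraries, as a hint from the data. In the other comparisons at least 1 such correlation was under 0.1. Differently numbered libraries reached 0.283 in IgG+Mino against IgG, and what the correlations reflect was not tested.

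The genes, lists and motifs were chosen with earlier results of these data known. Genes were named by a written rule: up to 5 called per direction and the 3 highest and 3 lowest fold changes per comparison, up to 10 with separate groups in a minocycline comparison, the 5 highest and lowest per kb, genes listed by role, and, of each other list, up to 5 called or the 2 with the smallest p. Mrpl22, Mrps30 and the examples of neighbouring genes fall outside it and were chosen after values were seen, as were the near misses picked out of each comparison. Canonical transcripts and coordinates came from GENCODE vM39.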

Additional observations from a re-analysis of the deposited data

How the results depend on the processing

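The median log2 fold change of the 78 genes kept its sign under every alternative run in the 2 minocycline comparisons, the 2 antibody comparisons and the fit over both antibodies. Leaving out 1 library gave -0.325 to -0.12 for IgG+Mino against IgG, -0.299 to -0.18 for APB5+Mino against APB5, -0.139 to -0.0636 for APB5 against IgG, -0.253 to -0.0246 for APB5+Mino against IgG+Mino and -0.252 to -0.169 over both antibodies. For the interaction the range was -0.129 to 0.0881, its sign turning without IgG+Mino replicate 1. With GC content and length offsets the median of APB5+Mino against APB5 was -0.12, and -0.10 with the replicate block as well.

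Counts of called genes were less stable, and the share of all genes called in the same fit, in either direction, stands after each in parentheses. For APB5+Mino against APB5 the count of 1 became 0 with library size scaling (0.0247%), with the replicate block (0%), with the offsets (3.08%) and with both together (0%), 5 with at least 10 counts in every library (8.96%), 12 with all 12 libraries in 1 fit (21.0%), 13 with Xist added to that fit (25.8%), 15 with DESeq2 (25.3%) and 0 to 16 when 1 library was left out (0% to 26.6%). For APB5+Mino against IgG+Mino the count of 2 became 0 with library size scaling (7.86%), with all 12 libraries in 1 fit (0%) and with Xist added to it (0%), 6 with the offsets, 3 in each direction (14.2%), 12 with DESeq2 (17.6%), 16 with the replicate block, whose numbers share only a label here (20.2%), and 0 to 7 when 1 library was left out (0% to 16.4%). Over both antibodies the count of 4 became 0 with the offsets (0.0673%) or Xist (0%), 2 with no filter on low counts (2.03%), 9 with the replicate block (5.97%), 17 with library size scaling (7.07%), 20 with DESeq2 (15.4%) and 0 to 26 when 1 library was left out (0% to 12.5%). In these last 2 the count was 0 at a log2 fold change of at least 1.

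At an unadjusted p under 0.05 the counts were 2 for IgG+Mino against IgG, 26 for APB5+Mino against APB5 and 2 for APB5 against IgG. They were 22 between the 2 minocycline groups, 3 for the interaction and 32 over both antibodies, each with both directions pooled. Of all genes, 19.2% were lower and 16.7% higher at this limit in APB5+Mino against APB5. Between the 2 minocycline groups 14.6% lay in each direction. The interaction had 9.08% lower and 8.06% higher, and the fit over both antibodies 16.3% and 13%. In IgG+Mino against IgG 3.39% were lower, and in APB5 against IgG 2.01%. The pooled counts are to be read against these shares. In the 3 comparisons with no call, every alternative other than the unadjusted limit also gave 0. The share of all genes called in these fits ran from 0% to 0.273% for IgG+Mino against IgG, highest with DESeq2. It ran from 0% to 6.75% for APB5 against IgG and from 0% to 4.29% for the interaction, both highest with Xist as a covariate. Of 133 refits of the 7 called values, none changed sign, 65 stayed past the threshold and 68 did not. The causes were not tested. Scaling by library size moved the median of all genes to -0.11 in APB5+Mino against APB5, where that of the 78 genes was -0.34.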
